A study of Mus musculus with 3 samples.

Results

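The integrin and laminin chain genes were measured by RNA sequencing of total RNA in F121-9, mouse embryonic stem (ES) cells derived from a cross of the Cast and 129 strains. The labels give 3 libraries, biological replicates 1 to 3, all at passage 14 and all made from 400 ng of RNA with spike-in RNAs added. They form 1 group of 1 line with no treatment and no second condition, so no comparison between conditions was possible, and p-values describe the spread of these libraries alone, which can be of technical origin. Genes were taken by symbol, as any integrin alpha chain (Itga), integrin beta chain 1 to 8 (Itgb) or laminin alpha, beta or gamma chain (Lama, Lamb, Lamc) with a protein-coding transcript. This gave 37 genes of 55536 in all and of 22028 protein-coding genes. Of the 37, 26 encode integrin chains (18 alpha, 8 beta) and 11 encode laminin chains (5 alpha, 3 beta, 3 gamma).

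Integrins are cell surface receptors built of an alpha and a beta chain, and the combination sets the ligand: collagens, laminins, proteins with an arginine-glycine-aspartate (RGD) site such as fibronectin, or receptors on other cells. Laminins are secreted trimers of an alpha, a beta and a gamma chain that form the base of basement membranes, and each trimer is numbered by its chains, so that laminin-511 holds alpha 5, beta 1 and gamma 1. Mouse ES cells adhere through integrins to laminin and fibronectin, and laminin and its receptors are needed for the first basement membranes of the embryo.

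The coding ends of the integrin chains below carry the tails through which integrins signal, and they are shown for the chains the results turn on. They were read 5′ to 3′ from the GENCODE M21 transcripts on mm10. In the alpha chains the capitals mark the codons of the membrane-proximal GFFKR motif, which holds the alpha and beta tails together, and the sequence runs from there to the stop codon. Itga6-202 and Itga6-201 end in different tails, known as alpha 6B and alpha 6A. The segments lie at chr2:71855857-71856015 and chr2:71853537-71853641 on the plus strand for Itga6, chr15:103345269-103345349 on the minus strand for Itga5, chr2:83803243-83803335 on the plus strand for Itgav and chr11:95046480-95046587 on the minus strand for Itga3.
Itga6-202: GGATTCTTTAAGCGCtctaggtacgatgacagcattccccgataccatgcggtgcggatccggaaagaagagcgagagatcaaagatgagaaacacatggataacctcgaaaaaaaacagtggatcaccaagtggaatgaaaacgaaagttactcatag
Itga6-201: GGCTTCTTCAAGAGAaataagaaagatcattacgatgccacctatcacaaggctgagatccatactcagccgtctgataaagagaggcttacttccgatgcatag
Itga5-201: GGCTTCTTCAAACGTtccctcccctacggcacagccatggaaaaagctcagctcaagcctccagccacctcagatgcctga
Itgav-201: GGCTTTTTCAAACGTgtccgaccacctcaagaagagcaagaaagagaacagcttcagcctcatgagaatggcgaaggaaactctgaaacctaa
Itga3-201: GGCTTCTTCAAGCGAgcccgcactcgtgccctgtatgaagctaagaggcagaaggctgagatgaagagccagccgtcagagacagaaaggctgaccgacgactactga

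In the beta chains the last 42 codons are shown, stop included, and the capitals mark the codons of the motif NPxY or NPxF, where talin and kindlin bind the tail. They span chr8:128726127-128732088 on the plus strand for Itgb1, chr16:33947852-33948752 on the plus strand for Itgb5 and chr15:102216160-102216489 on the minus strand for Itgb7, introns included.
Itgb1-201: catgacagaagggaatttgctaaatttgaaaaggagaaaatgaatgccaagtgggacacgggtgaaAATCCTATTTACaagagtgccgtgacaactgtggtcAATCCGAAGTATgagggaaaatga
Itgb5-202: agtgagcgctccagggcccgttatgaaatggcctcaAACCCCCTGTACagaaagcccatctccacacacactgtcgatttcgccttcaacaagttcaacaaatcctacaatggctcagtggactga
Itgb7-201: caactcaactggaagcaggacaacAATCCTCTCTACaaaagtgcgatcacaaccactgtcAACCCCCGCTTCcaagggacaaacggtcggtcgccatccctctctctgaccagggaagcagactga

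The codons of GFFKR, with lysine or arginine accepted in the fourth place, were found within the last 80 codons of the most abundant complete coding transcript in 15 of 18 alpha chains and were not found in Itga8, Itga10 and Itga11. NPxY or NPxF was found in that window in 6 of 8 beta chains and not in Itgb4 and Itgb8; Itgb1 and Itgb7 held 2 copies each and Itgb5 held 1. For scale, over the longest coding sequence of each of 21257 mouse genes the alpha motif was in 0.0565% and the beta motif in 1.19%. All 12 genes with the alpha motif on that basis were integrin alpha genes.

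The gene tables and the first transcript tables are called RSEM-style here and the second transcript tables kallisto-style, after their columns. Levels are given as TPM, an abundance scaled for transcript length and to the same sum in each library, which can be set side by side between genes. On gene rows the gene tables held 9575750 to 10425600 estimated counts, and 17717700 to 19156100 stood in all rows of the kallisto-style ones. The 37 genes took 15867 to 19987 of the counts, or 0.166% to 0.192%. Where a gene had no counts, up to 3 counts are allowed by counting error alone, equal to 0.288 to 0.313 CPM (counts scaled to library size). The 6 ES cell markers listed were all expressed, summing to 1903 to 2185 TPM, with Nanog at 505 ± 10.9 TPM (SD, n = 3). In a bulk sample, fewer cells of a type and less RNA per cell cannot be told apart.

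In every library, 16 of the 37 had 1 TPM or more and are called expressed, against 52.1% of all protein-coding genes. They comprised 4 of 18 integrin alpha chains, 5 of 8 integrin beta chains and 7 of 11 laminin chains. The median level of the 16 was 22.2 TPM, beside 19.7 TPM over all expressed protein-coding genes. Lamc1 stood above 90.1% of those genes and Itgb3, the lowest of the 16, above 2.09%. At a minimum of 5 TPM 14 of the 37 passed, beside 40.6% of all protein-coding genes, and at 0.5 TPM 19 did, beside 55.7%. With kallisto-style values 15 were expressed, beside 52.5%, Itgb4 falling below 1 TPM in 2 libraries.

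**Figure D1:**
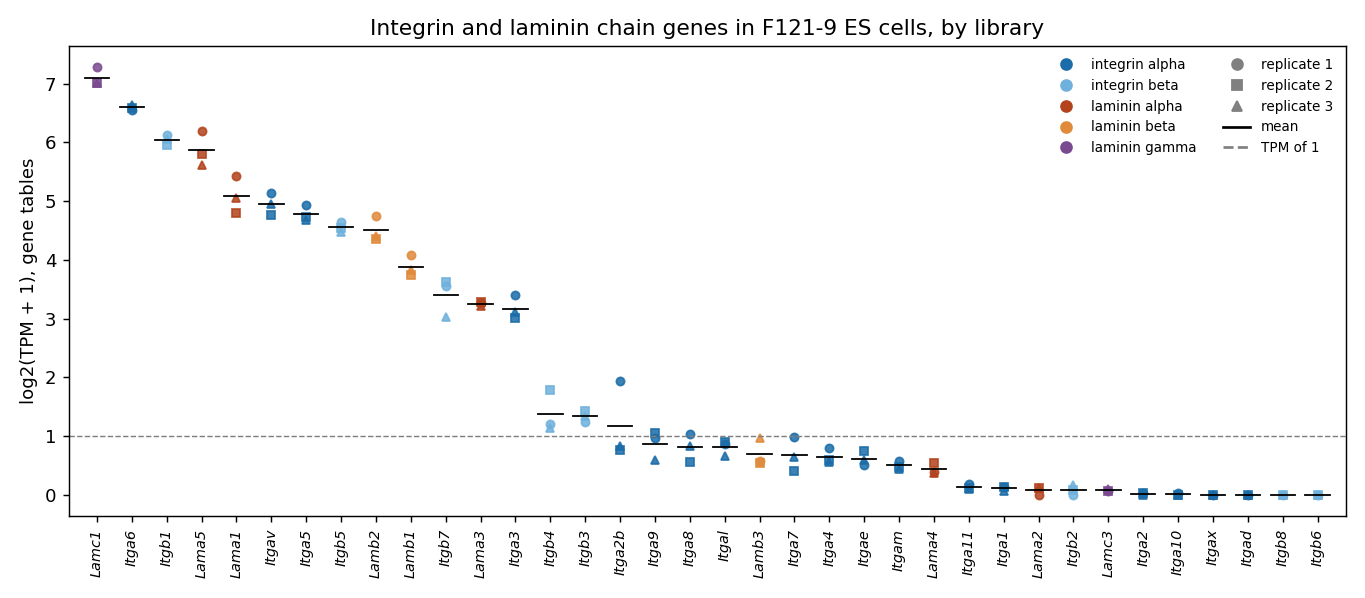
Gene level of 36 of the chains in each library, as log2(TPM + 1) from the RSEM-style gene tables, ordered by mean TPM and coloured by chain family. Symbols stand for the replicates, black bars for the mean of the plotted values of the 3 libraries, and the dashed line for a TPM of 1; 13 genes from Lamc1 to Itga3 stand clear of the rest.

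Among the integrin alpha chains, Itga6 was the most abundant (ENSMUSG00000027111.15, chr2:71745616-71858416, plus strand). Its protein binds laminin with either Itgb1 or Itgb4. Itga6 had 93.1, 94.8 and 98.7 TPM in replicates 1, 2 and 3, a mean of 95.5 ± 2.84 TPM (SD, n = 3) on 6921 counts. Itgav, the alpha chain of RGD receptors with 5 possible beta chains, had 34.3, 26.2 and 29.8 TPM. Itga5, the alpha chain of the fibronectin receptor, had 29.5, 25.4 and 24.5 TPM. The values of Itgav and Itga5 overlapped, and those of Itga6 lay above both in every library. Itga3, a laminin receptor chain like Itga6, had 9.60, 7.02 and 7.63 TPM, below the other expressed alpha chains in all libraries.

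The other 14 alpha chains did not reach 1 TPM in every library. Itga2b, the platelet alpha chain, had 2.86, 0.70 and 0.78 TPM on 27 counts in all. The high value of replicate 1 came largely from Itga2b-202, a processed transcript of 369 nucleotides with 1.73 TPM on 2.27 counts. The complete coding transcript Itga2b-201 averaged 0.0967 TPM, and 3 of 6 megakaryocyte and platelet markers (Ppbp, Gp9, Gp6) were at 0 in the gene tables, the list summing to 0 to 0.49 TPM. Itga9, a receptor chain for tenascin and VCAM1, averaged 0.853 TPM, Itga8, a nephronectin receptor chain, 0.770 TPM, Itga7, the laminin receptor chain of muscle, 0.623 TPM and Itga4, the other VCAM1 receptor chain, 0.577 TPM.

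The 4 collagen receptor chains were the lowest alpha chains with any counts. Itga11 averaged 0.103 TPM, Itga1 0.0833 TPM, Itga2 0.0133 TPM and Itga10 0.0100 TPM, on 10, 9, 2 and 1 counts. Among the leukocyte alpha chains, Itgal averaged 0.760 TPM, Itgae 0.540 TPM and Itgam 0.420 TPM, on 69, 44 and 42 counts, while Itgax and Itgad had no counts in any library of the gene tables. In the kallisto-style tables Itgad had 2.03 counts in all and Itgax none. Of 10 leukocyte markers 4 were expressed, summing to 55.7 to 62.2 TPM for the whole list, with Laptm5 at 48.7 TPM and Ptprc, Lyz2 and Tyrobp at 0. The part of other cells in these low values was not tested.

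Among the beta chains, Itgb1 led (ENSMUSG00000025809.15, chr8:128685654-128733200, plus strand). It is the shared partner of 12 alpha chains, and its tail shown above holds both talin and kindlin sites. Itgb1 had 69.0, 61.0 and 65.3 TPM in replicates 1, 2 and 3, a mean of 65.1 ± 3.99 TPM (SD, n = 3). Itgb5, a partner of Itgav in vitronectin binding, had 24.1, 22.3 and 21.3 TPM, below Itgb1 in every library. Itgb7, the beta chain of lymphocyte homing receptors, had 10.8, 11.3 and 7.18 TPM on 297 counts. Itgb4, the beta chain of hemidesmosomes, had 1.30, 2.47 and 1.21 TPM, and Itgb3, the partner of Itgav and Itga2b, had 1.38, 1.69 and 1.54 TPM. The ranges of Itgb4 and Itgb3 overlapped, and both lay below Itgb7 in all libraries. Itgb2, the leukocyte beta chain, averaged 0.0600 TPM on 3 counts, and Itgb6 and Itgb8, which pair with Itgav, had no counts in the gene tables, Itgb6 having 2.37 in all in the kallisto-style tables.

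Both chains were expressed in 7 of 24 integrin heterodimers known in mammals, and in 6 with kallisto-style values, where Itga6-Itgb4 dropped out. The 7 were 3 of 4 laminin receptors, 4 of 8 RGD receptors, 0 of 4 collagen receptors, 0 of 5 leukocyte receptors and 0 of 2 and 0 of 1 receptors that bind VCAM1 together with fibronectin or with tenascin. Ordered by the lower chain, Itga6-Itgb1 led, with Itgb1 as its lower chain at 65.1 TPM. It was followed by Itgav-Itgb1 at 30.1 ± 4.04 TPM and Itga5-Itgb1 at 26.5 ± 2.65 TPM, set by the alpha chain, and Itgav-Itgb5 at 22.6 ± 1.42 TPM, set by Itgb5 (SD, n = 3 each). The order of these depended on the table, since in the kallisto-style tables Itga5-Itgb1 was at 19.9 ± 2.98 TPM and both Itgav pairs at 14.3 ± 2.04 TPM, and with complete coding transcripts of the RSEM-style tables they were at 26.5 and 14.2 TPM. The other 3 were Itga3-Itgb1 at 8.08 ± 1.35 TPM, Itga6-Itgb4 at 1.66 ± 0.703 TPM and Itgav-Itgb3 at 1.54 ± 0.155 TPM. These are RNA levels of chains, and assembly of the receptors was not measured.

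The beta 1 chain was lower in RNA level than the sum of its partners. Itgb1 averaged 65.1 TPM and its 12 alpha partners summed to 163 ± 7.20 TPM, a log2 ratio of -1.33 ± 0.0257 (SD, n = 3). Itga6 exceeded Itgb1 by a log2 ratio of 0.56 ± 0.108, higher in 3 of 3 libraries. Itgb5 stood below Itgav in all 3 libraries, with a log2 ratio of -0.41 ± 0.150. These ratios are descriptions, since an exact sign-flip test over 3 libraries cannot go below a two-sided p of 0.25. Neither partner of Itgb7 was expressed, as Itgb7 averaged 9.76 TPM, against 0.577 TPM for Itga4 and 0.540 TPM for Itgae.

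Among the laminin alpha chains, Lama5 was the highest by gene TPM (ENSMUSG00000015647.9, chr2:180176373-180225859, minus strand). It is the alpha chain of laminin-511 and laminin-521, on which pluripotent cells are often grown. Lama5 had 72.0, 54.5 and 48.0 TPM in replicates 1, 2 and 3, and Lama1, the alpha chain of laminin-111 of the early embryo, had 42.2, 26.7 and 32.3 TPM. Their ranges did not overlap, and both were highest in replicate 1. Lama3, the alpha chain of epithelial laminin-332, was even across libraries, with 8.61, 8.77 and 8.29 TPM. Lama4 of blood vessels averaged 0.357 TPM and Lama2 of muscle 0.0600 TPM, on 33 and 6 counts.

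Of the beta chains, Lamb2 had 26.0, 19.5 and 20.3 TPM and Lamb1 had 16.0, 12.5 and 13.1 TPM, with Lamb2 higher in 3 of 3 libraries. Lamb3, the beta chain of laminin-332, averaged 0.633 ± 0.275 TPM on 47 counts. Of the gamma chains, Lamc1 (ENSMUSG00000026478.14, chr1:153218922-153332786, minus strand), shared by most laminins, had the highest level of all 37 genes in the gene tables at 154, 127 and 127 TPM. In the kallisto-style tables it had 99.0, 76.0 and 75.6 TPM and Itga6 had 84.0, 79.5 and 81.0 TPM, so that Lamc1 was higher there in replicate 1 only. Lamc3 averaged 0.0600 TPM on 7 counts.

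All 3 chains were expressed for 6 of 14 laminin trimers, and the same number held with kallisto-style values and with protein-coding transcripts alone. In the gene tables laminin-121 and laminin-521 had Lamb2 as their lowest chain, at 21.9 ± 3.55 TPM. Laminin-111 and laminin-511 had Lamb1, at 13.8 ± 1.86 TPM, and laminin-311 and laminin-321 had Lama3, at 8.56 ± 0.244 TPM (SD, n = 3 each). The lowest chain of laminin-121 differed by library in the kallisto-style tables and with protein-coding or complete coding transcripts. That of laminin-521 was Lama5 with protein-coding transcripts, at 17.7 ± 3.82 TPM, and differed by library with complete coding ones. Lamc1 exceeded the sum of Lamb1 and Lamb2, 136 against 35.8 TPM, by a log2 ratio of 1.93 ± 0.0608. Lama5 over Lama1 was 0.79 ± 0.229 and Lamb2 over Lamb1 was 0.66 ± 0.0396 on the log2 scale. Laminin-332 was not among the 6, since Lamb3 was not expressed by this measure.

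Several of these gene levels rested on short or noncoding transcripts. The 37 genes have 202 annotated transcripts, of which 69 are complete coding ones, meaning of protein-coding type with no incomplete end in the annotation; this class was chosen after the values were seen. Of Lama5, 45.0% of TPM in the kallisto-style tables and 30.5 ± 2.37% in the RSEM-style tables lay on the complete coding transcript Lama5-201. Its other TPM lay mainly on Lama5-202, Lama5-203 and Lama5-204, processed transcripts of 451, 734 and 478 nucleotides at the 3′ end of the gene, with 93.3, 166 and 61.8 counts beside 4463 counts for Lama5-201 in the RSEM-style tables. By counts, 93.3% of Lama5 was therefore on the complete coding transcript, whose level was 17.7 ± 3.82 TPM (SD, n = 3).

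Lama1 was split in the same manner, with 77.6% of TPM in the kallisto-style tables and 59.8 ± 6.02% in the RSEM-style tables on its complete coding transcript, Lama1-201. Another 40.0% of the RSEM-style TPM lay on Lama1-202, a processed transcript of 565 nucleotides with 112 counts. Itgav had 74.2% in the kallisto-style tables and 47.4 ± 3.13% in the RSEM-style tables, where Itgav-205, a fragment of 463 nucleotides with 70.1 counts, took 40.0%. Its highest transcript was Itgav-201, and Itgav-206, also with an incomplete coding sequence, averaged 2.24 TPM in the kallisto-style tables and 3.44 TPM in the RSEM-style tables. Lamc1 had 91.4% and 67.6 ± 1.84%, and Lamc1-204, which has an incomplete 5′ start, took 7.42% and 31.9% in the kallisto-style and RSEM-style tables. Itgb7 had 62.1% and 50.7%, with 39.7% of the RSEM-style TPM on the retained intron transcript Itgb7-204 from 22.2 counts. Itgb1 lay wholly on Itgb1-201 in both tables.

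Itga6 differed from these in that its noncoding share rested on many counts. Itga6-203, a processed transcript of 2721 nucleotides whose end lies 1645 nucleotides past that of Itga6-202, took 48.1 ± 1.19% of Itga6 TPM in the kallisto-style tables and 44.1 ± 0.712% in the RSEM-style tables, on 2389 counts there. It was the highest transcript of the gene in both. Of the coding forms, Itga6-202 with the alpha 6B tail had 34.6 ± 3.51 TPM and Itga6-201 with the alpha 6A tail had 14.3 ± 4.10 TPM in the RSEM-style tables. Itga6-202 made up 73.9 ± 4.79% of both forms together in the kallisto-style tables and 70.9 ± 7.72% in the RSEM-style ones, and was the larger in all 3 libraries of each. The forms differ by an exon of 130 nucleotides at chr2:71853534-71853663 that Itga6-202 skips and that holds the stop codon of Itga6-201.

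In the remaining chains most of the TPM lay on complete coding transcripts. All of Itgb5 and Lama3 lay there in both tables, as did 97.7% of Itga5 in the kallisto-style tables and 100% in the RSEM-style tables. The shares were 94.8% and 99.8% of Lamb1 and 93.4% and 92.3% of Itga3, in the same order of tables. Lamb2 was the least complete of them, with 68.8 ± 9.05% in the kallisto-style tables and 85.5 ± 6.91% in the RSEM-style tables, all on Lamb2-201; Lamb2-207, with an incomplete coding sequence, held 11.6% and 6.59%. Lamb1-201 held 84.2% and 94.8% of Lamb1, and Lamb1-205 10.7% and 5.06%. Lama3 was almost wholly Lama3-202, a short form of 5551 nucleotides with 98.3% of TPM, while Lama3-201 of 10548 nucleotides had 0.147 TPM. Itgb5-202 held 84.8% of Itgb5 in the kallisto-style tables and 94.4% in the RSEM-style tables, and Itgb5-201 held 15.2 ± 11.2% and 1.93%. Of the 16 expressed members, 2 had under 50% of TPM on complete coding transcripts in each table, beside 12.7% of expressed protein-coding genes in the kallisto-style tables and 10.4% in the RSEM-style tables. The members' share was 12.5% in each table, close to that of all such genes. The 2 were Lama5 and Itga6 (44.7%) in the kallisto-style tables and Lama5 and Itgav in the RSEM-style tables. All 16 had the same highest transcript in both tables.

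**Figure D2:**
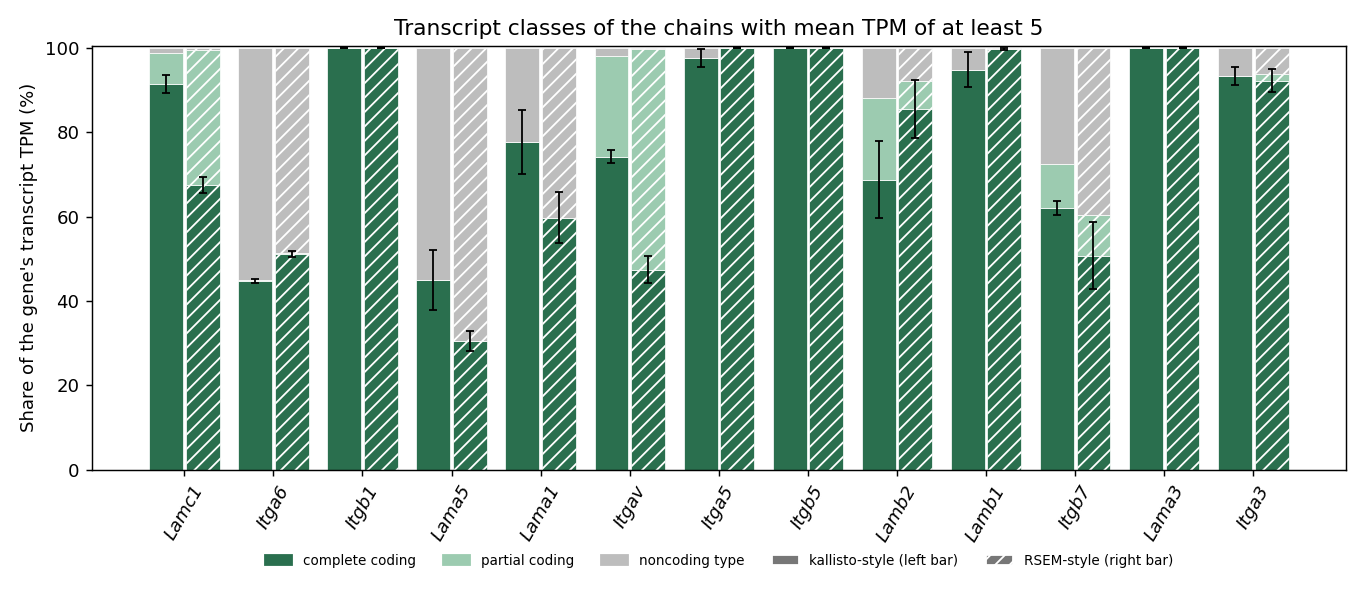
Share of each gene's transcript TPM on complete coding, partial coding and noncoding transcript types, for 13 chains with a mean of at least 5 TPM. Left bars are kallisto-style and hatched right bars RSEM-style tables, as means of 3 libraries; error bars are the SD of the complete coding share. Itgb1 is at 100% in both, and Lama5 at 45.0% and 30.5%.

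Counting complete coding transcripts only changed which chain was the higher one in 3 of the comparisons. Itga6 then averaged 48.8 ± 1.81 TPM, below Itgb1 at 65.1 TPM, with a log2 ratio of -0.41. Itgb5 at 22.6 TPM was above Itgav at 14.2 ± 0.998 TPM, with a log2 ratio of 0.67, and kallisto-style gene values gave 0.25. Lama5 at 17.7 TPM was below Lama1 at 20.0 ± 3.75 TPM, with a log2 ratio of -0.18 and lower values in 3 of 3 libraries. Lamb2 over Lamb1 stayed positive at 0.43, and Lamc1 at 92.1 ± 12.3 TPM stayed above the summed beta chains with a log2 ratio of 1.50. The counts of 7 integrin heterodimers and 6 laminin trimers held as well. Which chain of Lama5 and Lama1, of Itga6 and Itgb1 and of Itgb5 and Itgav was higher thus depended on the transcripts counted.

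**Figure D3:**
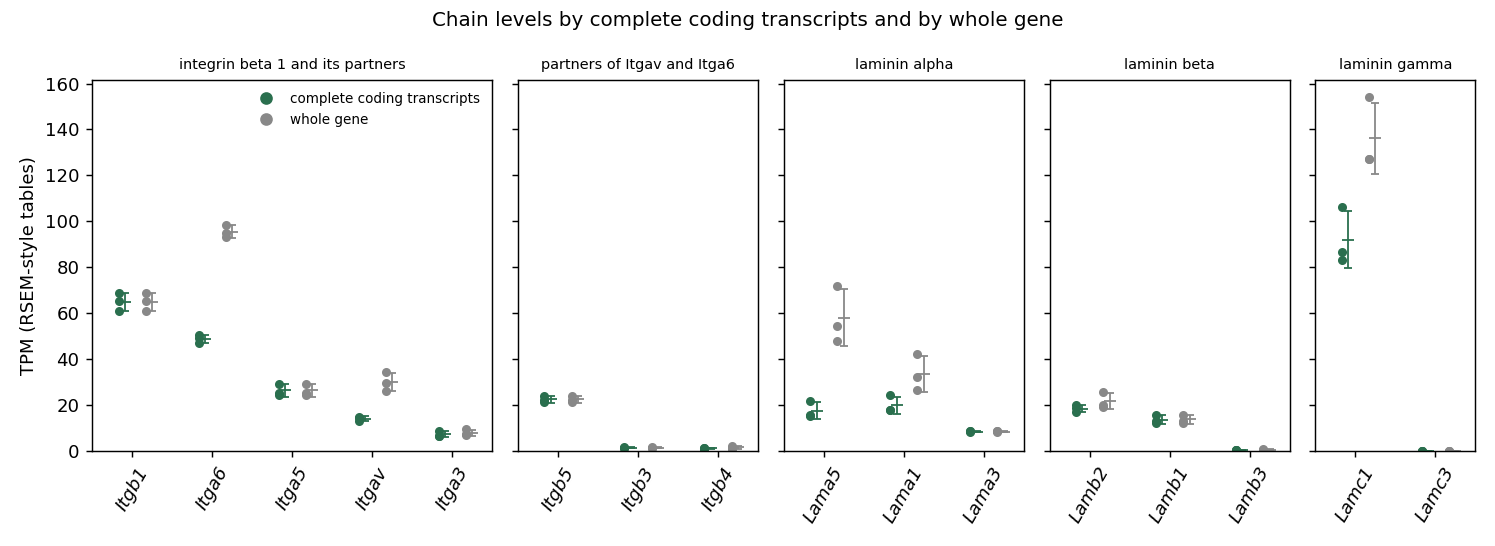
TPM of the chains in the RSEM-style tables, counted over complete coding transcripts (green) and over the whole gene (grey). Points are libraries, and bars the mean with SD of 3 libraries. Itgb1 is the same by both measures, whereas Itga6 is at 48.8 and 95.5 TPM and Lama5 at 17.7 and 58.2 TPM.

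The kallisto-style and RSEM-style values of 28 member transcripts were compared within each library with limma on log2(TPM + 1), a scale that understates the change of low transcripts. A call needed an adjusted p under 0.05 and a difference of at least 1. Of the 28, 6 were called, beside 18.9% of all 28903 transcripts tested, and the 6 were all higher in the RSEM-style tables, beside 6.78% called in that direction and 12.1% in the other. They were among the short or incomplete transcripts described above. Others described there were not called, such as the retained intron transcript Itgb7-204, with a difference of -0.81. Itgav-205 averaged 1.00 ± 0.866 TPM in the kallisto-style tables and 11.9 ± 0.552 TPM in the RSEM-style tables, a log2 difference of -2.81 with SE 0.361 (limma adjusted p = 0.0104, n = 3 libraries). Lamc1-204 averaged 6.27 ± 2.59 and 43.3 ± 4.62 TPM in the same order, a difference of -2.68 with SE 0.202 (limma adjusted p = 0.00366). The others were Lama5-204 at -1.51, Lama1-202 at -1.47, Lama5-202 at -1.11 and Lama5-203 at -1.06, with limma adjusted p from 0.00299 to 0.0235. Lama5-202 was not called with replicate 1, 2 or 3 left out, its difference then being -0.81, -1.26 and -1.24 (limma adjusted p = 0.0326, 0.0669 and 0.0715), nor with no filter on low values (limma adjusted p = 0.0824). Itgav-205 was not called at a pseudocount of 0.1, where its difference was -4.24 (limma adjusted p = 0.0516).

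The long coding transcripts moved less. Over the 28 the median difference was -0.42, beside -0.23 over all transcripts tested, and 25 of 28 were below 0, beside 66.5%. Lama5-201 differed by -0.39, Itgb1-201 by -0.38 and Lamc1-201 by -0.27 on the log2 scale. Itga6-203 differed by -0.10 (limma adjusted p = 0.240). Whole-gene levels followed, with Lamc1 at 83.6 ± 13.4 TPM in the kallisto-style tables and 136 ± 15.4 TPM in the gene tables, and Lama5 at 29.4 ± 3.29 and 58.2 ± 12.5 TPM. Itga6 was at 81.5 ± 2.29 and 95.5 ± 2.84 TPM.

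Spread between the libraries was tested in the 22 members that passed edgeR's filter on low counts. The quasi-likelihood dispersion of edgeR called 0 of 22 members variable at an adjusted p under 0.05, beside 0.0373% of 13391 genes. At an unadjusted p under 0.05 there were 3 members, beside 610 of 13391 genes. They were Lama5, Lama1 and Lamc1 (edgeR adjusted p = 0.444, 0.622 and 0.987). With DESeq2 size factors 0 members were called, beside 6 of 13391 genes, and with spike-in scaling 0, beside 2 of 13391. In simulated data this edgeR test called 7 of 50 genes changed 1.6-fold in 1 library and 36 of 50 changed 2-fold. Smaller changes can therefore go uncalled. The changed genes were drawn above a minimum level and all genes were given the same dispersion. The recovery thus does not cover members with low counts, such as Itgae and Lamb3. A chi-square test against counting noise alone called 6 of 22, beside 12.4% of all genes tested. Among the 6, normalised counts in replicates 1, 2 and 3 were 193, 142 and 143 CPM for Lama5 (adjusted p = 6.48e-22, chi-square with edgeR library sizes). They were 618, 517 and 528 for Lamc1 (adjusted p = 6.91e-23, edgeR library sizes) and 170, 130 and 130 for Lama1 (adjusted p = 8.50e-15, edgeR library sizes).

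Lamb1 had 64.7, 53.2 and 55.7 CPM and Itga3 30.8, 23.8 and 24.4 CPM in replicates 1, 2 and 3 (adjusted p = 0.0177 and 0.0276, edgeR library sizes). In these 5 genes replicate 1 was the high library. Itga6 was lowest in replicate 1, with 218, 235 and 242 CPM (adjusted p = 0.0120, edgeR library sizes), but was highest in replicate 1 with spike-in scaling, at 237, 226 and 231 CPM, where it was not called (adjusted p = 0.422, edgeR library sizes scaled to the spike-ins). Without replicate 1 the chi-square test called 0 of 22 members, beside 0.2% of genes. The unadjusted edgeR p was then under 0.05 in 0 of 22 members, beside 711 of 13489 genes. Without replicate 2 it called 5 of 24 members, beside 1464 of 13583 genes, and 5 of 22 without replicate 3, beside 1471 of 13549. Itga3 and Lamb1 were not called without replicate 2 (chi-square adjusted p = 0.0533 and 0.0747, edgeR library sizes), nor Itga6 without replicate 3 (adjusted p = 0.108, edgeR library sizes). Itga5 was called without replicate 2 only (chi-square adjusted p = 0.0354, edgeR library sizes), among the fits that left out a replicate. With all libraries it was not (adjusted p = 0.0685, same test).

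Replicate 1 was the highest library in 15 of 22 members, beside 37.8% of all genes tested. With spike-in scaling it was the highest in 17 of 22 members, beside 75.8% of all genes, a share close to that background. It was also the highest in 61.2% of genes of at least 4000 nucleotides by the deposited gene length, and 14 of the 22 members are of that length, 10 of them highest in replicate 1. The median log2 ratio of replicate 1 over the mean of the others was 0.13 in members, 0.09 in genes of at least 4000 nucleotides and -0.0029 in all genes. With spike-in scaling the median was 0.31 in members and 0.18 in all genes. The part of transcript length in the members' values was not tested.

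**Figure D4:**
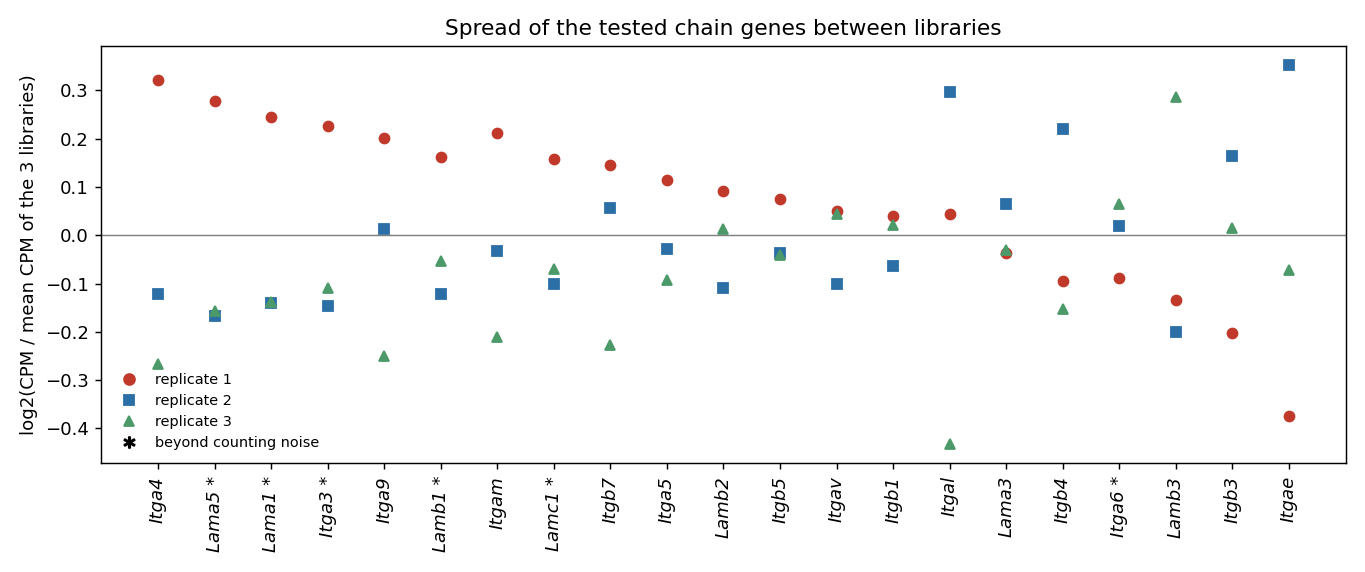
Normalised count (CPM) of 21 tested chain genes in each library, as log2 of its ratio to the mean of the 3 libraries. Symbols are replicates, genes are ordered by replicate 1 against the others, and an asterisk marks a spread beyond counting noise. Lama5 has 193 CPM in replicate 1, against 142 and 143 in the others.

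Genes that work with the chains were taken from lists, and the share of them expressed is to be set beside the 52.1% of all protein-coding genes. Levels and zeros here are of the gene tables. Of 18 other basement membrane genes 12 were expressed, led by Nid2 (191 ± 13.6 TPM) and Nid1 (98.9 ± 1.16 TPM), the nidogens that link laminin to type IV collagen, with Sparc and Agrn at 80.0 TPM each and the laminin receptor Bcam at 72.9 TPM. The collagen chain Col4a6 was at 0 in both kinds of table, and Col4a3 was at 1.32 ± 0.236 TPM in the kallisto-style tables and at 0 in the gene tables (SD, n = 3). Of 22 integrin ligands other than laminins 11 were expressed, close to that background, led by Spp1, osteopontin, at 748 ± 47.9 TPM and Fn1, fibronectin, at 304 ± 40.3 TPM (SD, n = 3). Mfge8 was at 150 TPM, Cdh1 at 134 TPM and Icam1 at 55.5 TPM, while Vcam1, the ligand of Itga4 and Itga9, and Col3a1 were at 0. Both Fn1 and its receptor chains Itga5 and Itgb1 were expressed.

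Of 25 cytoplasmic partners of integrins 21 were expressed, led by Flna (98.9 TPM), an actin crosslinker that binds beta tails, the kindlin Fermt2 (46.0 TPM), Ilk (43.6 TPM), the small GTPase Rap1a (39.3 TPM) and vinculin, Vcl (34.5 TPM). The order depended on the table for Parvb, a parvin that binds Ilk, which averaged 103 ± 2.67 TPM in the kallisto-style tables, above Flna at 55.6 TPM there, and 5.93 ± 1.46 TPM in the gene tables. Of 9 membrane partners 8 were expressed, with Bsg at 762 TPM, the tetraspanins Cd81, Cd9 and Cd63 at 744, 621 and 421 TPM and Slc3a2 at 400 ± 20.3 TPM, all above Lamc1. Of 10 genes listed for laminin binding other than integrins, partners of dystroglycan such as Dmd included, 9 were expressed. They were led by Rpsa (482 TPM), which also encodes a ribosomal protein, Bcam, the dystroglycan gene Dag1 (69.2 TPM), Dmd (58.5 TPM) and Sdc1 (27.1 TPM). For primitive and parietal endoderm, a source of laminin-111 in the embryo, 7 of 16 markers were expressed and the list summed to 97.1 to 105 TPM, of which Sparc held 80.0 TPM, with Ttr and Afp at 0. For fibroblasts and feeder cells 3 of 12 were expressed, summing to 60.4 to 70.4 TPM with Fbln1 at 57.7 TPM, and Col3a1, Dcn, Lum, Postn, Fap and Twist2 were at 0. Of the endothelial markers 1 of 7 was expressed, Vwf at 3.84 TPM, and Emcn was at 0. Of the muscle markers 2 of 7 were expressed, with Des highest at 2.81 TPM and Myod1 and Acta1 at 0, and of the surface epithelium markers 1 of 6, Krt10 at 7.81 TPM, with Krt15 and Krt1 at 0. The part of such cells in the chain levels was not tested.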

How the data were processed

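Total RNA of 3 libraries in 1 group was analysed on mm10 with GENCODE M21, per the deposited notes. The values deposited as estimated or expected counts are unnormalized, per gene or per transcript, and the deposited TPM values were scaled by the authors over all features. The RSEM-style tables were made from transcriptome alignments and the kallisto-style tables from reads without an alignment file, per the deposited notes; which quantifiers, aligner, versions and strand setting were used is not given in the sources used here. Without a known strand setting, reads of a chain gene and of any gene antisense to it may not be told apart. All 55536 gene IDs matched M21, from which names, types, coordinates and sequences were taken.

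Rounded counts were filtered with filterByExpr, scaled with TMM and fitted without covariates in edgeR 4.0.16 (R 4.3.3), and the F distribution was used to set the dispersion of a gene against the trended prior. A chi-square test on the same genes asked whether the spread exceeded Poisson noise. Transcript tables were compared with limma 3.58.1 on log2(TPM + 1), for transcripts with 1 TPM or more in either table of every library. All p-values are Benjamini-Hochberg adjusted over all features tested, at 0.05. Chain ratios are log2 ratios of TPM per library. The 96 ERCC rows and 26249 rows without a gene ID, with 1.89% of counts, stayed out of library sizes. The scripts were tested on simulated data. Other values came from Python 3.11.15, pandas 2.3.3 and Biopython 1.88.

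The members, gene lists and tests were chosen with earlier results of these data known. Results of 1 member are not reported here, though it is in the counts over members; the others are named, and those with a mean of at least 1 TPM have a value per library. Transcripts named are the highest of each member with a mean of at least 5 TPM, those with 10% or more of the gene, and those called by limma. Transcripts named beyond these (of Itga2b and Lama3) were chosen after their values were seen. Of each list, up to 5 genes of highest TPM and any at 0 are named; 3 older symbols were matched through RefSeq synonyms. Alternatives were other thresholds, scalings (DESeq2 1.42.0 size factors, spike-in totals), filters, pseudocounts, tables, transcript classes and each replicate left out.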

Additional observations from a re-analysis of the deposited data

How the results depend on the processing

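Against the values reported, 53 alternative values of the main counts and ratios kept their direction and stayed within 1.5 times the count reported or 1 SD of the ratio reported, 12 moved further and 6 reversed. Among single genes and transcripts, 75 alternative values kept the call, 15 lost it and 0 reversed. The expressed count ran from 14 to 19, beside 40.6% to 56.1% of all protein-coding genes. It was 16 with each replicate left out in turn, beside 52.5% to 52.7%. The edgeR count of variable members was 0 under all 7 alternatives, with the limit on small changes given above. Few genes of any kind were called, from 2 of 13391 with spike-in scaling to 34 of 22939 with no filter on low counts. A count of 0 is close to that background. The count beyond counting noise was 9 of 27 members tested with kallisto-style counts, beside 2800 of 15934 genes. It was 11 of 22 with spike-in scaling, which was chosen after the data were seen, beside 4644 of 13391 genes. Without replicate 1 it was 0 of 22, beside 27 of 13489 genes. It was 5 of 24 without replicate 2, beside 1464 of 13583, and 5 of 22 without replicate 3, beside 1471 of 13549. Without a minimum difference 25 of 28 member transcripts differed between tables, beside 17807 of 28903 of all transcripts. The count called was 6 of 31 without replicate 1, beside 4983 of 30541, and 5 of 29 without replicate 2, beside 5375 of 31148. Without replicate 3 it was 7 of 30, beside 5430 of 31309. Lama5-202 was not called with any of the replicates left out. With limma, a variance trend gave 6 of 28, beside 5490 of 28903.

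Relative to the main log2 ratios, kallisto-style tables gave 0.72 for Itga6 over Itgb1, 0.25 (reversed) for Itgb5 over Itgav, 0.87 for Lamb2 over Lamb1 and 1.46 for Lamc1 over both beta chains. Protein-coding transcripts gave -0.83 for Itgb1 over its alpha partners, -0.41 (reversed) for Itga6 over Itgb1, -0.18 (reversed) for Lama5 over Lama1, 0.54 for Lamb2 over Lamb1 and 2.00 for Lamc1 over the beta chains. Complete coding transcripts, chosen after the data were seen, gave -0.61, -0.41 (reversed), -0.18 (reversed), 0.43 and 1.50 for the same ratios and 0.67 (reversed) for Itgb5 over Itgav. These alternatives leave out transcripts or use another table by construction; why the tables differ was not tested. No ratio changed direction when a replicate was left out.

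Apart from the limma comparison, which set both tables side by side within each library, no paired analysis was possible because the libraries form 1 group. Levels near or below 1 TPM rest on few counts: Itga2b had 27, Lamb3 47 and Itga4 124 in all. No isoform claim is possible beyond what each table's assignment of shared reads gives.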
